A study of Mus musculus with 16 samples.

Results

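The transcripts of 10 genes that carry growth factor signals into the cell through the ERBB receptors and Met were followed in liver cells treated with sorafenib. The genes were taken by name, as possible bypass signalling, from a table of 40840 mouse genes, with earlier results of these data known. They are the receptors Egfr, Erbb2, Erbb3 and Met, the EGFR ligands Hbegf, Ereg, Tgfa, Areg and Btc, and the ERBB3 and ERBB4 ligand Nrg1. All 10 passed the filter on low counts, a total of at least 10 reads over all libraries.

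Sorafenib is an oral kinase inhibitor given in advanced hepatocellular carcinoma (HCC), and its targets include the RAF kinases and the receptors of VEGF and PDGF. Its effect was measured by mRNA sequencing in p53-/-; Myc hepatoblasts, mouse fetal liver progenitor cells that lack p53 and overexpress Myc and that serve as an in vitro model of HCC. The cells received sorafenib at 8.5 µM or the vehicle, DMSO, for 48 hours or for 7 days, with 4 libraries in each of the 4 groups. Both treatments and both times share the p53-/-; Myc genotype. The cells are 1 line, and nothing in the labels says that the replicates were separate cultures, so p-values measure the spread between these libraries, which may be technical.

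ERBB receptors are tyrosine kinases that pair on binding a ligand and then feed the RAS, RAF and ERK cascade and the PI3K pathway. ERBB2 has no known ligand and acts as a partner of the others, and ERBB3 has a weak kinase and signals mainly through its partners. Their ligands are made as membrane precursors and are cut free by proteases of the ADAM family. Met is the receptor of HGF, and both Met and EGFR are known for their part in liver growth and regeneration. When a drug blocks a kinase inside the cell, activity of such receptors may restore the signal by another route, which is called bypass signalling.

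Library totals ran from 16586254 to 30828427 counts. Replicate 2 of sorafenib at 48 hours stood apart: from chromosome 15 on, in the chromosome order used here, its counts were 0.605 times the level of the genes before. In the libraries of the other 3 groups the largest such step was 0.0252 on the log2 scale. Hbegf, on chromosome 18, was the only 1 of the 10 genes in that region, which held 3838 tested genes. Members outside the region also stood at the edge of their group in this library. Its normalized read counts were the highest of the group for Egfr, Erbb2, Met, Nrg1, Areg and Btc and the lowest for Erbb3. The cause was not tested. The members' log2 fold changes at 48 hours are given with and without this library.

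The cells carried only part of the hepatoblast programme. Dlk1, a surface protein of hepatoblasts, had means of 32230 normalized read counts with DMSO and 10440 with sorafenib at 48 hours. At 7 days it had 16770 and 4020. The cholangiocyte keratin Krt19 had 2626 and 1537 at 48 hours and 1457 and 1016 at 7 days. Both were thus lower with sorafenib at each time and also lower at 7 days with DMSO alone. Sox9, a progenitor and cholangiocyte transcription factor, was higher with sorafenib, at 664 against 212.5 at 48 hours and 904 against 349.7 at 7 days. Of 7 tested hepatoblast markers, 1 was higher and 5 were lower at 48 hours, and 1 was higher and 6 lower at 7 days. Hnf4a, the central transcription factor of hepatocyte identity, was at 0 counts in all 16 libraries, and albumin (Alb) had at most 1 count in any library. The 9 mesenchymal cell markers summed to between 121900 and 124100 normalized read counts with DMSO and between 187400 and 202700 with sorafenib at 48 hours, and to between 115800 and 119700 and between 126000 and 130800 at 7 days. Of these 9, 4 were higher and 4 lower at 48 hours (median log2 fold change -0.30), and 3 were higher and 6 lower at 7 days (median -1.14). At an FDR under 0.05, 26.9% of all tested genes were higher and 27.7% lower at 48 hours, with a median of -0.05. At 7 days 28.9% were higher and 27.9% lower, with a median of 0.02. Acta2, smooth muscle actin, went from 4683 to 65480 and from 24190 to 63560, while the collagen gene Col3a1 went from 70780 to 46410 and from 44490 to 10180. The 6 endothelial and 7 blood cell markers summed to at most 238 and 158 in any library. The part of these shifts in the results below was not tested, and in bulk RNA fewer cells of a type and less RNA per cell cannot be told apart. Trp53, the deleted gene, still had mean normalized read counts between 1843 and 3690 in the 4 groups. The labels do not say which exons the deletion removed, so a count over the whole gene does not check it. Myc had group means between 8974 and 14820. The marker and Myc levels with sorafenib at 48 hours include replicate 2, whose counts were lowered from chromosome 15 on. In that group Acta2 ranged from 47770 to 73380 and Myc from 6390 to 10190, so their means there are uncertain to that extent.

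Promoters, from 250 bases before to 50 after the start of transcription, were found in RefSeq (build GRCm38.p6) for 6 of the 10 genes: Egfr, Erbb2, Met, Areg, Tgfa and Btc. Erbb3, Ereg, Hbegf and Nrg1 were not matched. The stretches of the receptors Egfr and Met, whose transcripts moved in opposite directions at 48 hours, and of the ligands Tgfa and Areg, which were both higher at 7 days, are printed so that they can be set beside the values. Capitals mark the motifs found on either strand among AP-1 (TGANTCA), CRE (TGACGTCA), E-box (CACGTG), TEAD (GGAATG) and an ATF4 type motif (TGATGNAA). No match printed here overlaps another.
Egfr, chr11:16751953-16752252, plus strand: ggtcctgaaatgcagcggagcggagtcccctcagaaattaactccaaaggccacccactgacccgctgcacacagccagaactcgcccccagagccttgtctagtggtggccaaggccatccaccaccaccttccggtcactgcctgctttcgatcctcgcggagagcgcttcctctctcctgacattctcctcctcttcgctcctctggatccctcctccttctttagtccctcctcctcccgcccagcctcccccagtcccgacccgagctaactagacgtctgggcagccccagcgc
Met, chr6:17463707-17464006, plus strand: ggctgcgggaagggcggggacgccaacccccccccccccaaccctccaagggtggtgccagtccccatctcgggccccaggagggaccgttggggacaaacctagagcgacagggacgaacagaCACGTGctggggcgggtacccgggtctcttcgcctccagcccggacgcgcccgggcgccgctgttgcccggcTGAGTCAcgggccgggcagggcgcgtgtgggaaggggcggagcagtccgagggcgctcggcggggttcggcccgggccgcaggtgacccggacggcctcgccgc
Tgfa, chr6:86194972-86195271, plus strand: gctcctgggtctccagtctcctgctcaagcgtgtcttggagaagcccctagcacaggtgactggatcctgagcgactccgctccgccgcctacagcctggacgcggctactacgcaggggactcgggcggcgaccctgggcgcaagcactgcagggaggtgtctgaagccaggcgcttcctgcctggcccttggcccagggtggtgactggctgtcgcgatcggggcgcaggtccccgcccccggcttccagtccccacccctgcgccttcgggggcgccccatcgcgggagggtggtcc
Areg, chr5:91139349-91139648, plus strand: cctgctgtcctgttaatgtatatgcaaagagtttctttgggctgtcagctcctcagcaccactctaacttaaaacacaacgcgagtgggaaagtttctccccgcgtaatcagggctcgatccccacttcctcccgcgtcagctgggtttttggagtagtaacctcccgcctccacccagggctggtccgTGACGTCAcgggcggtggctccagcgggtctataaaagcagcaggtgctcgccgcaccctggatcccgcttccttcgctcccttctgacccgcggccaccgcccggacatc

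Met held an AP-1 match that begins 54 bases before the start and an E-box that begins 126 before it. AP-1 letters were in 7.81% and E-box letters in 7.15% of all 32851 promoters of this length. Areg held a CRE match 61 bases before its start, a motif found in 1.79% of promoters. Erbb2 held the TEAD letters 88 bases before its start, and 14.7% of promoters did. None of the motifs, the ATF4 type (3.97% of promoters) included, was found in the windows of Egfr, Tgfa and Btc. The printed windows were rich in G and C, with 62.3% in Egfr, 75.7% in Met, 70.7% in Tgfa and 59.3% in Areg against a median of 52.7% over all promoters. A match is a run of letters and not evidence of binding.

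The members lie on 6 chromosomes of the GRCm39 build (GENCODE vM39 gene models). Egfr (chr11:16702198-16868158) and Erbb2 (chr11:98303203-98328542) lie far apart on 1 chromosome, as do Met (chr6:17463749-17573979) and Tgfa (chr6:86172041-86252728). Ereg (chr5:91222157-91241505), Areg (chr5:91287451-91296291) and Btc (chr5:91505120-91550883) are neighbours in a cluster of EGFR ligand genes. Erbb3 is at chr10:128403392-128425811, Nrg1 at chr8:32303906-33374825 and Hbegf at chr18:36637980-36649677. Exons of Hbegf share 831 bases with Gm41698 and those of Ereg share 173 with Gm19610, both on the opposite strand. The strand setting of the counting was not given in the sources used here, so these antisense pairs are uncertain to that extent. Gm41698 had at most 6 counts in any library. Gm19610 had mean normalized read counts of 7.85 and 18 at 48 hours and of 11.2 and 67.6 at 7 days, for DMSO and sorafenib in each case.

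The transcripts of the EGFR ligands Hbegf, Ereg and Tgfa rose with sorafenib at both times, while those of the receptors Egfr and Erbb2 fell. At 48 hours 5 of the 10 genes were higher with sorafenib (Hbegf, Ereg, Tgfa, Nrg1 and Met) and 2 were lower (Egfr and Erbb2). A gene was called when its FDR over all 20444 tested genes (Benjamini-Hochberg) was under 0.05 in the quasi-likelihood test of edgeR. Of all tested genes 54.6% were called at 48 hours, 26.9% higher and 27.7% lower. At 7 days 5 of the 10 were higher (Hbegf, Ereg, Tgfa, Areg and Btc) and 3 lower (Egfr, Erbb2 and Met), where 56.8% of all tested genes were called, 28.9% higher and 27.9% lower. The median log2 fold change of the 10 genes was 0.81 at 48 hours and 0.97 at 7 days, against -0.05 and 0.02 over all tested genes. The libraries of the groups did not overlap for 7 of the 10 genes at 48 hours, as for 48% of all tested genes, and for 7 of the 10 at 7 days, as for 56.8% of all. A share of calls this close to that of all genes says little about the members as a set, and the results lie in which of them moved and how far.

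**Figure D1:**
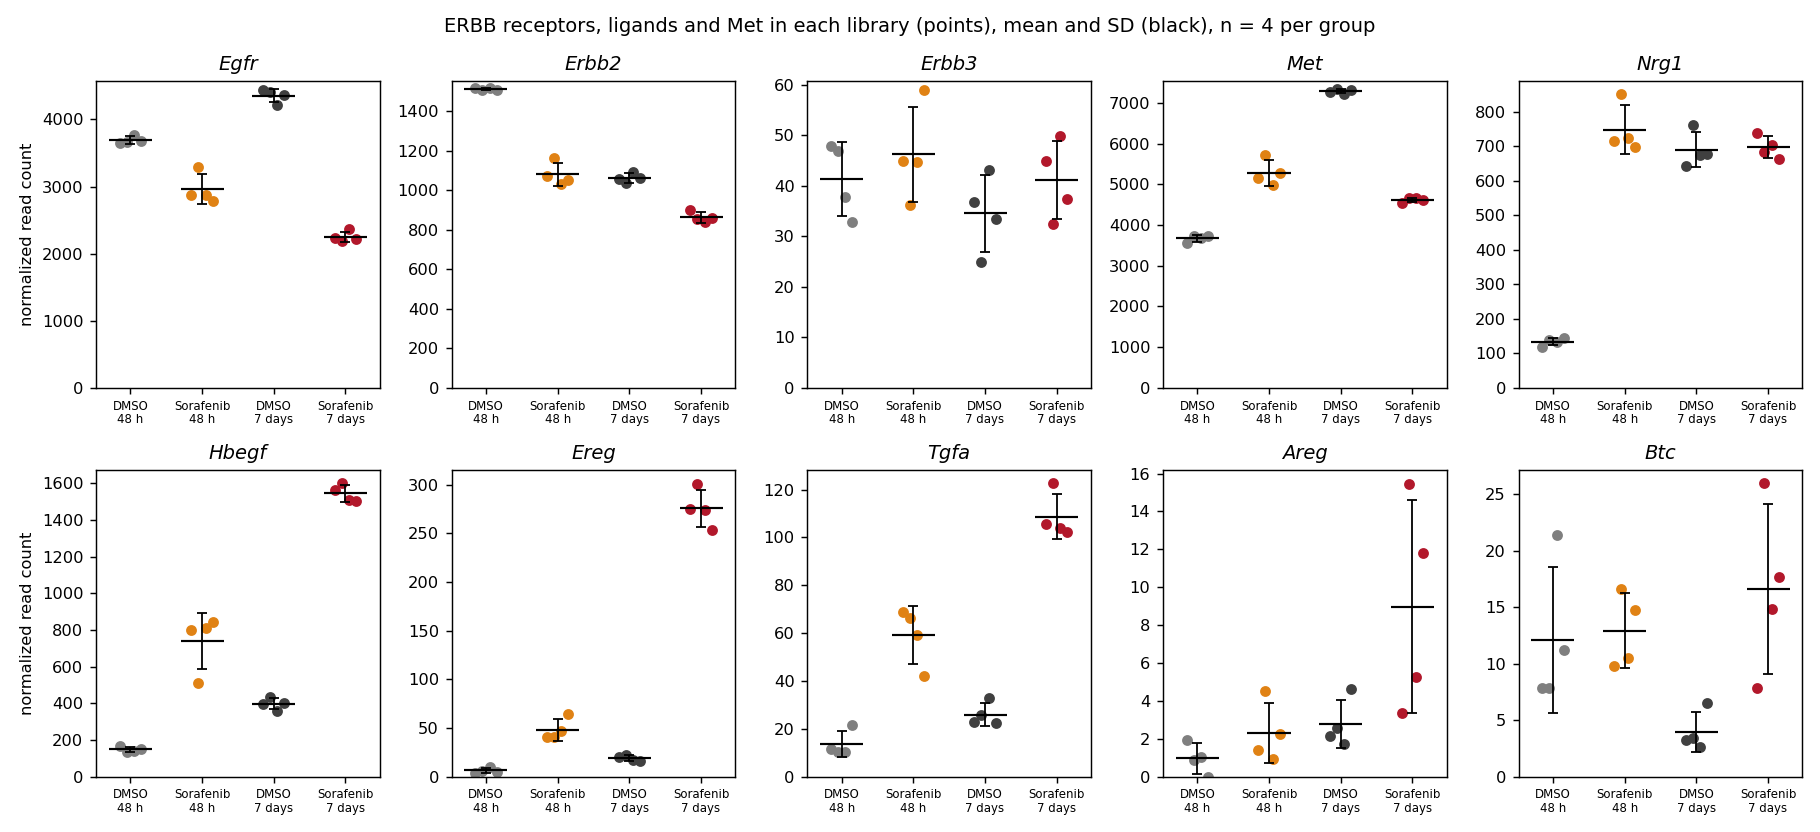
Normalized read counts (y axes, from 0) of the 10 genes in each library (points) by group (x axes), with the mean as a long bar and the SD as whiskers (n = 4). Hbegf, Ereg and Tgfa climb from DMSO at 48 hours to sorafenib at 7 days, Egfr is lowest with sorafenib at 7 days, and Nrg1 is low in DMSO at 48 hours and similar in the other 3 groups.

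Egfr, the receptor of all 5 EGFR ligands followed here, was lower with sorafenib at both times. At 48 hours the DMSO libraries had 3653, 3662, 3773 and 3676 normalized read counts and the sorafenib libraries 2872, 3287, 2878 and 2792. At 7 days they had 4441, 4412, 4210 and 4361 with DMSO and 2229, 2196, 2363 and 2215 with sorafenib. Every sorafenib library lay under every DMSO library of its time, and the highest of the sorafenib libraries at 48 hours was replicate 2. The log2 fold change was -0.32 at 48 hours (SE 0.0427, FDR 1.98e-06) and -0.95 at 7 days (SE 0.0428, FDR 1.38e-13), which is 1.25-fold and 1.93-fold lower. The fall was greater at 7 days, by 0.63 on the log2 scale (interaction log2 difference -0.63, 95% interval -0.76 to -0.50, FDR 6.19e-08). Without replicate 2 of sorafenib at 48 hours the fall at 48 hours was -0.37 (FDR 9.33e-16). With DMSO, Egfr was 1.18-fold higher at 7 days than at 48 hours, so that the order of the 4 groups, each differing from the next, was sorafenib at 7 days, sorafenib at 48 hours, DMSO at 48 hours and DMSO at 7 days.

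Erbb2, the partner receptor, fell with sorafenib and with time. Its DMSO libraries at 48 hours were tightly grouped, with 1519, 1510, 1519 and 1507 normalized read counts, and the sorafenib libraries had 1075, 1164, 1032 and 1054. At 7 days the values were 1060, 1036, 1095 and 1063 with DMSO and 902, 858, 838 and 859 with sorafenib. Again the groups did not overlap at either time. The log2 fold change was -0.49 at 48 hours (SE 0.0396, FDR 1.61e-09) and -0.30 at 7 days (SE 0.0401, FDR 2e-06), and the difference of 0.19 between them was called (FDR 0.0124). DMSO at 7 days and sorafenib at 48 hours could not be told apart for Erbb2 (log2 difference -0.02, 95% interval -0.11 to 0.07, FDR 0.698).

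Erbb3 was scarce, with 32.8 to 47.9 normalized read counts with DMSO and 36.3 to 59.1 with sorafenib at 48 hours. At 7 days the ranges were 24.8 to 43.2 and 32.5 to 49.9. The groups overlapped throughout, and no comparison of Erbb3 was called. The log2 fold change was 0.18 (95% interval -0.25 to 0.60, FDR 0.468) at 48 hours and 0.25 (-0.18 to 0.68, FDR 0.297) at 7 days. A change of either sign within those bounds therefore remained possible. Without replicate 2 of sorafenib at 48 hours the 48-hour value was 0.26 (FDR 0.258).

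Met, the HGF receptor, changed direction between the times. At 48 hours its libraries had 3556, 3736, 3670 and 3725 normalized read counts with DMSO and 5161, 5713, 4976 and 5278 with sorafenib. By 7 days the DMSO libraries had climbed to 7265, 7346, 7223 and 7308, and the sorafenib libraries had 4548, 4657, 4657 and 4626. All sorafenib libraries were above the DMSO libraries at 48 hours and all were below them at 7 days. Met was 1.44-fold higher with sorafenib at 48 hours (log2 fold change 0.52, SE 0.0353, FDR 9.19e-11) and 1.58-fold lower at 7 days (-0.66, SE 0.0350, FDR 2.03e-12), with an interaction of -1.18 (95% interval -1.29 to -1.07, FDR 3.6e-13). Both treatments moved with time, and in opposite directions. With DMSO the level rose 1.98-fold from 48 hours to 7 days (FDR 1.84e-14), and with sorafenib it was 1.14-fold lower at 7 days (FDR 0.000178). Without replicate 2 of sorafenib at 48 hours the 48-hour log2 fold changes were 0.48 for Met and -0.52 for Erbb2. With sorafenib at 7 days, Met was still 1.26-fold above DMSO at 48 hours (FDR 6.37e-08). The 2 times also differ in the time in culture, which cannot be told apart from the time of treatment.

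Relative to Egfr, Met was more abundant with sorafenib than with DMSO at both times. On levels per kilobase of exon, Met stood at 1.49 ± 0.038 times Egfr (SD, n = 4) with DMSO at 48 hours and at 2.67 ± 0.11 times with sorafenib. At 7 days the ratio was 2.5 ± 0.049 with DMSO and 3.07 ± 0.097 with sorafenib. The libraries of the 4 groups did not overlap in this ratio (1.45 to 1.52, 2.58 to 2.83, 2.45 to 2.56 and 2.95 to 3.17, in the same order). Erbb2 stood at 0.874, 0.780, 0.521 and 0.819 times Egfr per kilobase, lowest with DMSO at 7 days, and at 0.41, 0.366, 0.244 and 0.384 times when not divided by length. For sorafenib at 48 hours, leaving out replicate 2 gave ratios per kilobase of 2.7 for Met and 0.789 for Erbb2. Erbb3 was at 0.0146 to 0.0334 times Egfr in the group means.

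Hbegf, heparin-binding EGF-like growth factor, was the most abundant of the EGFR ligands. Its DMSO libraries had 169, 134, 139 and 150.4 normalized read counts at 48 hours and its sorafenib libraries 798, 511, 809 and 843. At 7 days the values were 395, 437, 360 and 401 with DMSO and 1566, 1601, 1510 and 1503 with sorafenib. No sorafenib library overlapped a DMSO library of either time, and the lowest of them was replicate 2 at 48 hours, the library with lowered counts in the region that holds Hbegf. The log2 fold change was 2.33 at 48 hours (SE 0.124, FDR 2e-12) and 1.96 at 7 days (SE 0.103, FDR 1.75e-12), or 5.04-fold and 3.88-fold. Without replicate 2 of sorafenib at 48 hours it was 2.47 at 48 hours. The difference between the times was -0.38 and was not called with all libraries (95% interval -0.73 to -0.02, FDR 0.0794). It was -0.51 and called without that library (FDR 3.37e-06), and -0.52 when that region was given an offset in that library (FDR 3.25e-06). With DMSO, Hbegf rose 2.69-fold from 48 hours to 7 days (FDR 1.23e-08).

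Ereg, epiregulin, had the greatest fold change of the 10 genes at either time. It was near the limit of detection with DMSO at 48 hours, at 3.91, 6.07, 10.2 and 5.19 normalized read counts (4 to 10 reads), and had 40.7, 40.8, 46.6 and 64.7 with sorafenib. At 7 days DMSO gave 20.5, 22.3, 17.3 and 15.8, and sorafenib gave 274.5, 300.5, 273.8 and 253.8. The lowest sorafenib library exceeded the highest DMSO library many times over at 7 days. The log2 fold change was 2.94 at 48 hours (SE 0.246, FDR 2.48e-09) and 3.86 at 7 days (SE 0.142, FDR 5.85e-15), or 7.67-fold and 14.5-fold. Summed over the libraries of each group, 27 and 162 reads at 48 hours gave a ratio of 7.83 (95% interval 5.19 to 12.2), and 82 and 1185 reads at 7 days one of 14.6 (11.7 to 18.5); these intervals cover counting error only. The difference of 0.92 between the times had an FDR of 0.0529 and was not called (95% interval 0.13 to 1.70). It passed the threshold in 10 of 23 alternative settings and not in the other 13. Without replicate 2 of sorafenib at 48 hours it was 0.85 and not called (FDR 0.062). With DMSO Ereg rose 2.99-fold with time (FDR 0.000117). The antisense Gm19610 also had higher mean normalized read counts with sorafenib at both times. With DMSO at 48 hours its mean was above that of Ereg (7.85 against 6.34), and in the other groups it was below. Its part in the reads counted for Ereg was not tested.

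Tgfa, transforming growth factor alpha, rose by nearly the same factor at both times. The DMSO libraries had 11.7, 10.4, 10.2 and 21.6 normalized read counts at 48 hours, and the sorafenib libraries had 68.8, 66.5, 59.0 and 42.0. At 7 days they had 22.7, 25.7, 32.8 and 22.3 with DMSO and 106, 123, 104 and 102 with sorafenib. The groups did not overlap, although DMSO replicate 4 at 48 hours was about as high as the DMSO libraries at 7 days. The log2 fold change was 2.08 (SE 0.226, FDR 1.21e-07) and 2.06 (SE 0.173, FDR 2.5e-09), and the difference between them was -0.02 (95% interval -0.58 to 0.54). With DMSO Tgfa was 1.90-fold higher at 7 days (FDR 0.00458).

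Hbegf, Ereg and Tgfa ranked the 4 groups alike. All 3 were lowest with DMSO at 48 hours, followed by DMSO at 7 days, sorafenib at 48 hours and sorafenib at 7 days, and each neighbour in this order differed from the next for each gene. Without replicate 2 of sorafenib at 48 hours the log2 fold changes at 48 hours were 3.00 for Ereg and 2.03 for Tgfa, beside 2.47 for Hbegf. From the lowest to the highest group Ereg differed 43.2-fold, Hbegf 10.4-fold and Tgfa 7.92-fold.

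Areg and Btc were scarce. Areg, amphiregulin, had 2, 1, 1 and 0 reads with DMSO and 1, 3, 1 and 2 with sorafenib at 48 hours, and 2, 3, 2 and 5 with DMSO and 3, 19, 6 and 12 with sorafenib at 7 days. The count of 0 allows up to 2.59 normalized read counts in that library, which stands for 3 reads. Only the sorafenib libraries at 7 days went above 5 reads, and 1 of them did not. Areg was higher with sorafenib at 7 days (log2 fold change 1.69, SE 0.529, FDR 0.0103), but the libraries overlapped and the call was lost without sorafenib replicate 2 (1.27, FDR 0.0683). The ratio of summed reads at 7 days, 40 against 12, was 3.37 (95% interval 1.73 to 7.06). At 48 hours the log2 fold change of 1.10 was not called (95% interval -0.84 to 3.04, FDR 0.318). It was 0.64 without replicate 2 of sorafenib at 48 hours (FDR 0.628), and that library held 3 of the reads of its group.

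Btc, betacellulin, had 7.82, 7.81, 21.4 and 11.2 normalized read counts with DMSO and 9.82, 16.6, 10.5 and 14.8 with sorafenib at 48 hours. At 7 days it had 3.24, 3.43, 2.59 and 6.49 with DMSO and 7.87, 26.0, 14.9 and 17.7 with sorafenib. The groups overlapped at 48 hours and were separate at 7 days, where the gap between the lowest sorafenib and the highest DMSO library was small. Btc was 4.24-fold higher with sorafenib at 7 days (log2 fold change 2.09, SE 0.437, FDR 0.000377) and not called at 48 hours (0.10, 95% interval -0.75 to 0.95, FDR 0.852). Without replicate 2 of sorafenib at 48 hours the 48-hour value was -0.02 (FDR 0.974). The difference between the times was 1.98 (FDR 0.0124). With DMSO Btc was 2.96-fold lower at 7 days than at 48 hours (FDR 0.00841), and with sorafenib the 2 times did not differ beyond their spread (log2 difference 0.42, 95% interval -0.38 to 1.22).

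**Figure D2:**
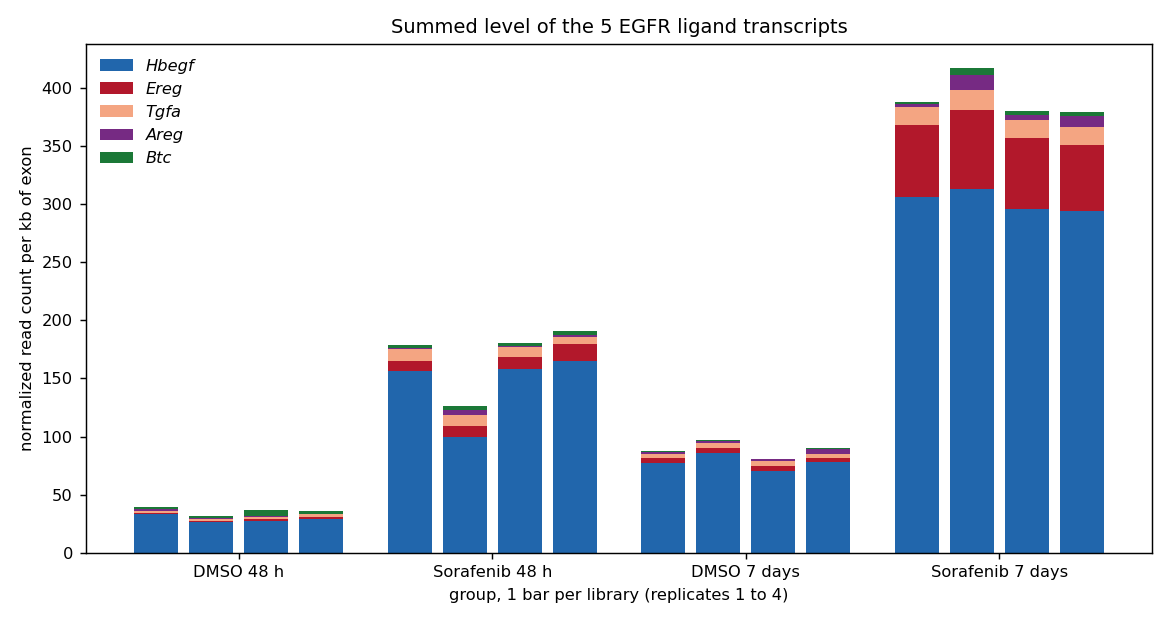
Summed level of the 5 EGFR ligand transcripts in normalized read counts per kilobase of exon (y axis) for each library (bars, 4 per group), stacked by gene. Hbegf makes up most of every bar, the bars with sorafenib at 7 days are the tallest, between 379.6 and 417, and Ereg takes its greatest share there.

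Taken per kilobase, the 5 EGFR ligands summed to 35.8 ± 3.15 normalized read counts (SD, n = 4) with DMSO and 169 ± 29.0 with sorafenib at 48 hours. At 7 days the sum was 89.1 ± 6.63 with DMSO and 391 ± 17.7 with sorafenib. Replicate 2 was the lowest of the sorafenib libraries at 48 hours, at 126, and even this was above every DMSO library. Without it the sum was 183 ± 6.46 (SD, n = 3). Hbegf made up 80.9%, 85.2%, 87.4% and 77.3% of the sum in the 4 groups, in the order DMSO and sorafenib at 48 hours, then DMSO and sorafenib at 7 days. The sum covers the 5 members only and leaves out the EGFR ligands Egf and Epgn. In the same order Egf had means of 3.34, 3.4, 2.82 and 3.87 per kilobase, and Epgn 0.614, 1.07, 2.31 and 1.29. Ereg made up 4.02%, 6.45%, 4.78% and 15.8%, and its share with sorafenib at 7 days (15.02% to 16.19%) did not overlap that of any other group. These are levels of messenger RNA, and neither ligand protein nor its release was measured.

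Nrg1, neuregulin 1, which binds ERBB3 and ERBB4, had a pattern of its own. At 48 hours the libraries had 119, 138, 133 and 143 normalized read counts with DMSO and 716, 853, 724 and 699.6 with sorafenib. At 7 days they had 644, 763, 675 and 677 with DMSO and 739, 685, 705 and 663 with sorafenib. The DMSO libraries at 48 hours were far below all others, and the groups at 7 days overlapped fully. Sorafenib raised Nrg1 5.58-fold at 48 hours (log2 fold change 2.48, SE 0.0796, FDR 6.99e-16), and at 7 days the log2 fold change was 0.01 (95% interval -0.13 to 0.15, FDR 0.874). The interaction was -2.47 (FDR 3.42e-13). With DMSO, Nrg1 rose 5.16-fold from 48 hours to 7 days (FDR 6.6e-15), so the control at 7 days stood where the treated cells stood at 48 hours (log2 difference -0.11, 95% interval -0.25 to 0.03, FDR 0.174). Without replicate 2 of sorafenib at 48 hours, the highest of its group, the change at 48 hours was 2.41.

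**Figure D3:**
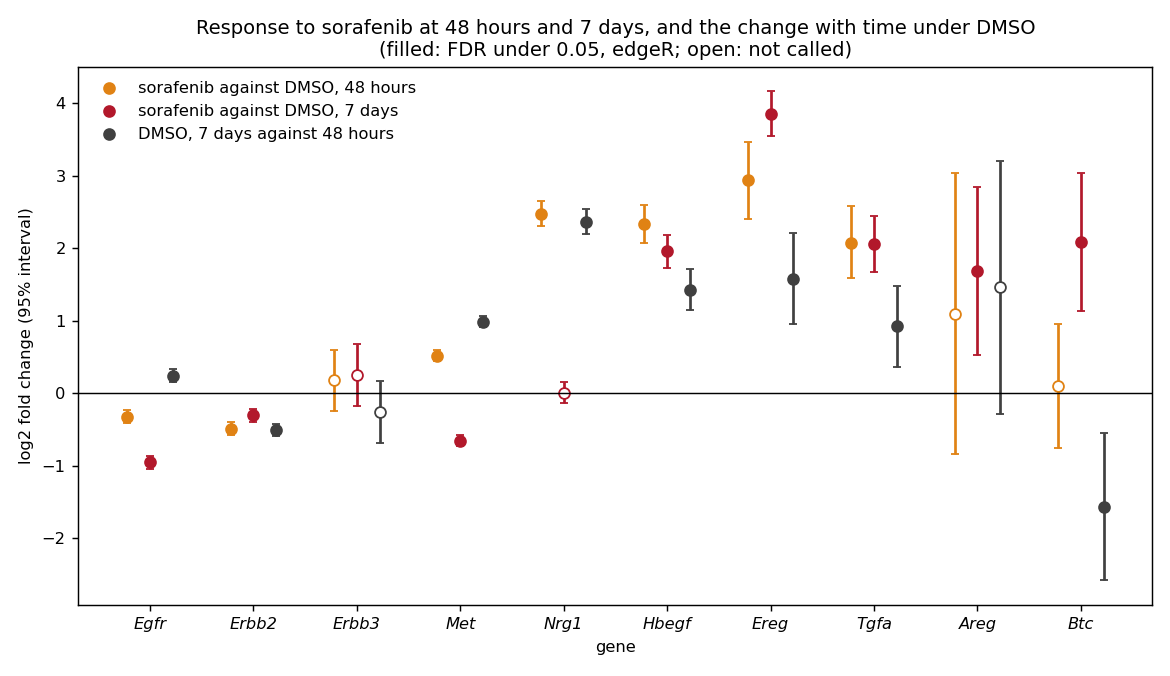
Log2 fold changes (y axis) with 95% intervals of the 10 genes (x axis) for sorafenib against DMSO at 48 hours and at 7 days, and for 7 days against 48 hours with DMSO. Filled points passed an FDR of 0.05. Met lies above 0 at 48 hours and below it at 7 days, and Nrg1 lies at 2.48 and 0.01.

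The responses at 7 days and at 48 hours differed for 5 of the 10 genes, 2 with a higher value at 7 days (Erbb2 and Btc) and 3 with a lower one (Egfr, Nrg1 and Met). Of all tested genes 36.8% had such an interaction, 15.5% higher and 21.3% lower. The members also differed between the times within 1 treatment. With DMSO 8 of the 10 differed between 7 days and 48 hours, against 49.4% of all genes: Nrg1, Ereg, Hbegf, Met, Tgfa and Egfr were higher and Btc and Erbb2 lower, as 23.9% and 25.5% of all genes were. The groups of libraries were apart for all 8, and for 50.8% of all genes. With sorafenib 7 of the 10 differed between the times, against 39.7% of all genes. Ereg (5.64-fold), Areg (4.12-fold), Hbegf (2.07-fold) and Tgfa (1.87-fold) were higher at 7 days, and Egfr, Erbb2 and Met were lower by 1.31-fold, 1.25-fold and 1.14-fold, where 17.5% of all genes were higher and 22.3% lower. The log2 changes with time under sorafenib, without replicate 2 at 48 hours, were 2.43 for Ereg, 2.51 for Areg, 0.92 for Hbegf and 0.96 for Tgfa, and -0.34, -0.29 and -0.15 for Egfr, Erbb2 and Met. The treatment comparisons within 1 time share no libraries with each other, while the comparisons over time share libraries with both.

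Members that passed an absolute log2 fold change of 1 as well as the FDR were fewer. At 48 hours they were Ereg, Nrg1, Hbegf and Tgfa (4 of 10, against 18% of all tested genes), and at 7 days Ereg, Btc, Tgfa, Hbegf and Areg (5 of 10, against 20.6%). The interaction passed this rule for Nrg1, Met and Btc (3 of 10, against 9.61%). Over time it was passed with DMSO by Nrg1, Ereg, Hbegf and Btc (4 of 10, against 11%) and with sorafenib by Ereg, Areg and Hbegf (3 of 10, against 8.45%). Across both treatment and time, sorafenib at 7 days differed from DMSO at 48 hours for 8 of the 10 genes, 6 higher and 2 lower, where 62.6% of all genes were called (30.9% higher and 31.7% lower). DMSO at 7 days differed from sorafenib at 48 hours for 6 of the 10, with Egfr and Met higher and Ereg, Hbegf, Tgfa and Btc lower, where 51.6% of all were called (24.9% higher and 26.7% lower).

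Other members of the families were counted in the same way. Of 9 other receptors and ligands of the families, 8 were tested, and Nrg3 had 0 counts in every library. At 48 hours Erbb4, a neuregulin receptor with an active kinase, and Nrg2 were higher, and Mst1r, the receptor of macrophage-stimulating protein, was lower. Erbb4 had mean normalized read counts of 114 with DMSO and 344 with sorafenib at 48 hours and of 123 and 171 at 7 days (log2 fold changes 1.58 and 0.48, FDR 1.37e-10 and 0.00129). Mst1r had 1083 and 633, then 822 and 286.5 (-0.77 and -1.52, FDR 1.15e-10 and 7.84e-15). Nrg2 was 0.28 higher on the log2 scale at 48 hours (FDR 0.00837). At 7 days Erbb4, Egf, Hgf and Mst1 were higher and Mst1r lower; Egf, Hgf and Mst1 are named after their values were seen. Hgf, the ligand of Met, had at most 18 counts in any library, with mean normalized read counts of 10.6 and 9.80 at 48 hours and of 1.22 and 6.04 at 7 days. The median log2 fold change of the 8 genes was 0.05 at 48 hours and 0.22 at 7 days, against -0.05 and 0.02 over all tested genes. Among all tested genes 26.9% were higher and 27.7% lower at 48 hours, and 28.9% and 27.9% at 7 days.

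Of 11 tested genes for the release of ERBB ligands and the activation of HGF, 2 were higher and 4 lower at 48 hours, and 1 was higher and 5 lower at 7 days. Adam9, a membrane protease, went from 3364 to 16310 mean normalized read counts at 48 hours and from 6225 to 16250 at 7 days (log2 fold changes 2.28 and 1.38, FDR 6.02e-20 and 3.88e-17). Spint2, an inhibitor of the proteases that activate HGF, went from 2050 to 528 and from 1350 to 174 (-1.96 and -2.96, FDR 1.14e-15 and 1.19e-17). Rhbdf2, which helps the sheddase ADAM17 reach the surface, was higher at 48 hours (0.54) and lower at 7 days (-0.28). Adam17 itself was slightly lower at both times (-0.13 and -0.29), and Adam10 was lower at 7 days (-0.64, FDR 5.44e-14). Frmd8 (-0.42) and Hpn were also lower at 48 hours and Spint1 (-0.96) at 7 days. Of the HGF-activating proteases in the list, Hpn had at most 6 counts in any library, Hgfac at most 5 and St14 at most 2. Adam17, Frmd8, Hpn, Spint1, Hgfac and St14 are named after their values were seen. The median log2 fold change of the list was 0.03 at 48 hours and -0.28 at 7 days, against -0.05 and 0.02 over all tested genes. The shares of all tested genes were 26.9% higher and 27.7% lower at 48 hours, and 28.9% and 27.9% at 7 days.

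Of 12 genes for the restraint and turnover of the receptors, 8 were higher and 3 lower at 48 hours. At 7 days 6 were higher and 4 lower, and the medians were 0.17 and 0.15. Turnover genes such as Usp8 (0.32 and 0.40) need not act against the receptors, so these are not counts of inhibitors. For all tested genes the shares were 26.9% higher and 27.7% lower at 48 hours, and 28.9% and 27.9% at 7 days. The medians over all of them were -0.05 and 0.02. Where every sample held at least 10 counts, 75.6% of genes were called at 48 hours and 75.2% at 7 days. Grb14, an adaptor that inhibits receptor kinases, rose at both times (2.30 and 1.81, FDR 8.83e-14 and 4.82e-12). Socs5, which promotes EGFR degradation, fell at both (-1.59 and -1.69). Lrig1, a membrane inhibitor of ERBB receptors, was lower at 48 hours (-0.63) and higher at 7 days (0.22), and the ubiquitin ligase Cblb was lower at 7 days (-0.84, FDR 4.79e-07). Ptpn1 was also lower at 48 hours (-0.18) and at 7 days (-0.60), and Cbl was lower at 7 days (-0.26); both are named after their values were seen.

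Of 20 adaptors and kinases below the receptors, 13 were higher and 4 lower at 48 hours, and 12 higher and 2 lower at 7 days. Beside this, 26.9% of all tested genes were higher and 27.7% lower at 48 hours, and 28.9% and 27.9% at 7 days. Among genes with at least 10 counts in every sample, 75.6% were called at 48 hours and 75.2% at 7 days. The list was not set beside genes of like abundance, so its share of calls says little about the list. The changes in the list were mostly small, with medians of 0.29 and 0.19, against -0.05 and 0.02 over all tested genes. Pik3cb, a catalytic subunit of PI3K, rose by 1.54 and 0.42 on the log2 scale, and Braf, a RAF kinase, by 1.01 and 0.25. The adaptor Gab2 was 0.70 higher at 48 hours, the phosphatase Ptpn11 was 0.36 and Map2k1, which encodes MEK1, 0.78 higher at 7 days (FDR 3.72e-09, 2.2e-09 and 4.9e-13). Grb2, Mapk3, Pik3r1 and Shc1 were lower at 48 hours, and Gab1 and Map2k2 at 7 days, all by at most 0.30; these are named after their values were seen.

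Of 16 ERK response genes, transcripts known to follow the activity of ERK, 10 were higher and 4 lower at 48 hours and 9 higher and 5 lower at 7 days, with medians of 0.36 and 0.21. Over all tested genes 26.9% were higher and 27.7% lower at 48 hours (median -0.05), and 28.9% and 27.9% at 7 days (median 0.02). Among genes with at least 10 counts in every sample, 75.6% were called at 48 hours and 75.2% at 7 days. Dusp4, an ERK phosphatase, went from 347 to 2297 mean normalized read counts at 48 hours and from 1373 to 4295 at 7 days (log2 fold changes 2.72 and 1.64, FDR 6.93e-17 and 2.19e-14). Fosl1, an AP-1 subunit, went from 14.8 to 59.7 and from 49.9 to 407 (2.04 and 3.02, FDR 1.18e-07 and 4.65e-14). Among the AP-1 and early growth response transcription factors of the list, Fos fell at 48 hours (-1.96, FDR 5.68e-14) and Egr1 at 7 days (-1.38, FDR 2.66e-09). Dusp5, Egr1 and Spry2 were also lower at 48 hours, and Dusp5, Fos, Spred1 and Spry4 at 7 days; Dusp5, Spry2, Spred1 and Spry4 are named after their values were seen. Fosl1, Egr1, Dusp5, Spry4, Socs5, Cblb, Frmd8 and Nrg2 lie in the region in which replicate 2 of sorafenib at 48 hours was lowered. Without that library their 48-hour values were 2.17, -0.69, -0.63, 0.67, -1.48, -0.07, -0.30 and 0.37, of which that of Cblb was not called.

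**Figure D4:**
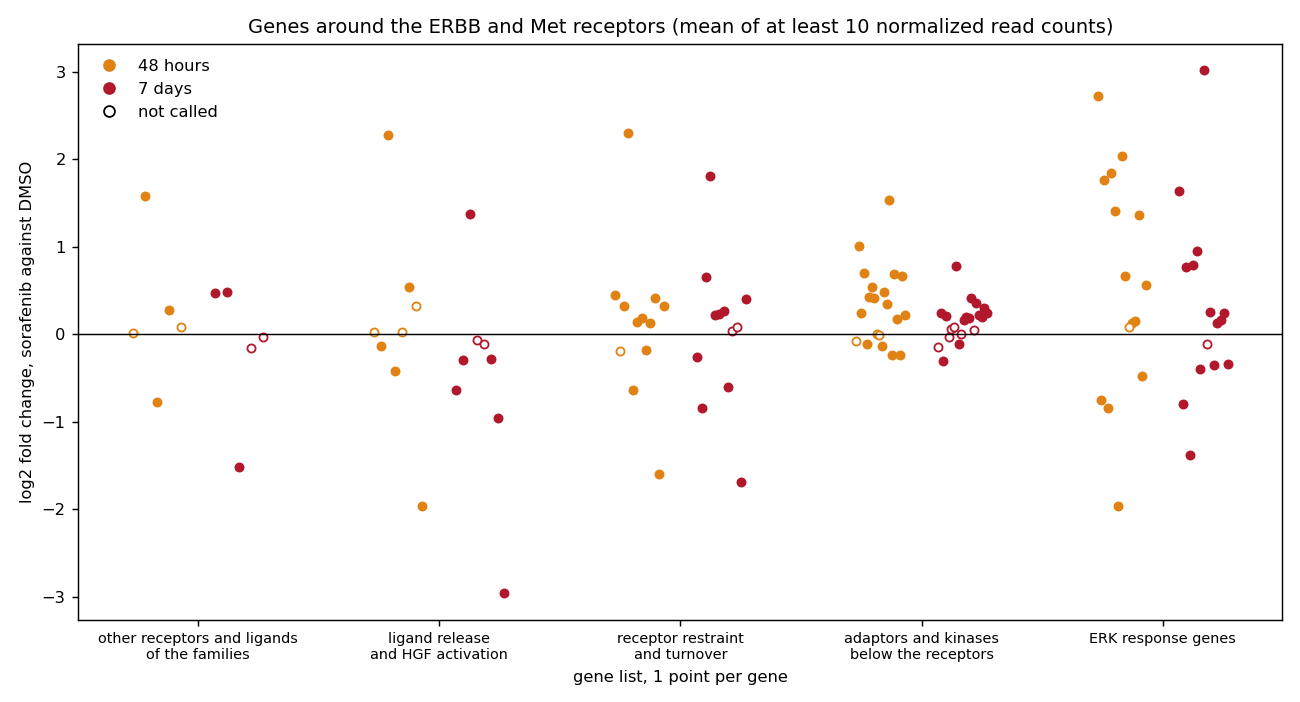
Log2 fold change of sorafenib against DMSO (y axis) at 48 hours and at 7 days for the genes of 5 lists around the receptors (x axis), 1 point per gene and time, leaving out genes whose mean was under 10 normalized read counts. Open points did not pass an FDR of 0.05. Points lie on both sides of 0 in every list, from -2.96 (Spint2 at 7 days) to 3.02 (Fosl1 at 7 days).

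For the 5 members whose mean reached 100 normalized read counts, the genes with the most similar profiles were found by Pearson's correlation of log2 counts scaled to the library size. It was taken over 15 libraries, without replicate 2 of sorafenib at 48 hours, and over 10645 genes. The libraries fall into 4 groups, so high values mean that the group means follow the same order and distances, and many genes reach them. Egfr was most like Lratd2 (0.996), Ccdc80 (0.995) and Foxo4 (0.995), and Erbb2 like Zfp395 (0.996), Mlec (0.993) and Ergic3 (0.993). Hbegf was like Plaur (0.998), the urokinase receptor, and Rock2 (0.998). Nrg1 was most like Tbx20 (0.997), Eif4g2 (0.996) and Edn1 (0.995), and Met like Arel1 (0.989), Atp6v1b2 (0.988) and Baz1a (0.988).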

How the data were processed

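RNA of p53-/-; Myc hepatoblasts was sequenced from 16 libraries made with a stranded mRNA kit, 4 in each of 4 groups set by the labels. The authors aligned the reads to GRCm39 with STAR 2.7.1a, and the submitters' processing notes also name featureCounts 2.0.6 and DESeq2 1.40.2. The deposited values are counts of reads per gene, whole numbers with no normalization, for 40840 genes. The annotation and the strand setting of the counting were not given in the sources used here. Of the 40840 gene symbols, 32487 had a position in GENCODE vM39.

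Genes with fewer than 10 counts in total were removed (20396), which left 20444. The quasi-likelihood test of edgeR 4.0.16 (R 4.3.3), after TMM normalization, was fitted to these in 1 model with a term for each of the 4 groups and no block. The threshold for a call was an FDR of 0.05 (Benjamini-Hochberg, over all tested genes). The study used DESeq2; DESeq2 1.42.0 and limma 3.58.1 were run as alternatives, together with other scalings, filters, a log2 fold change threshold of 1, an offset for the lowered region of 1 library, a replicate block, fits on the 8 samples of 1 time point or treatment, and each library left out in turn. Normalized read counts are counts divided by the library total times the TMM factor, scaled to the geometric mean of the libraries. Levels per kilobase use the summed length of all annotated exons of a gene. With 16586254 to 30828427 counts per library (median 26360677), 3 counts, taken as the limit a count of 0 allows, are 2.44 to 4.54 normalized read counts. Intervals are at 95%, and those of read ratios cover counting error only. The scripts were tested on simulated data.

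Same-numbered libraries of 1 time point deviated together with correlations of -0.047 to 0.122, so the numbers were not taken to pair the samples. No 2 replicates matched within sampling noise: the lowest chi-square per gene between them was 1.58, where counting error alone gives about 1. The highest values were those of DMSO replicate 4 at 7 days, 53.1 to 71.6 against the others of its group. Replicate 2 of sorafenib at 48 hours had 32.6 to 38.0, and pairs of DMSO libraries at 48 hours ranged from 5.09 to 42.7.

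The members, gene lists and rules were chosen with earlier results of these data known. Named were the 10 members; in each list the 3 called genes with the largest absolute log2 fold change at 48 hours and at 7 days, with a mean of at least 100 normalized read counts; Trp53 and Myc; and for each member of that mean the 3 most similar genes. Some genes that the rule names are not reported here. Marker genes, antisense partners and a list gene at 0 counts are named outside this rule, as are genes whose call changed without 1 library and list genes marked in the text; the markers given values were chosen after those were seen. Marker lists for hepatoblasts, mesenchymal, endothelial and blood cells served to check the cell type.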

Additional observations from a re-analysis of the deposited data

Results flagged for a closer look

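In 4 of the 40 sets of 4 libraries (10 genes in 4 groups), 1 library lay far from the other 3 by Dixon's criterion, which chance alone does in about 1 of 20 sets. With sorafenib at 48 hours, replicate 2 was low for Hbegf (511 normalized read counts) and high for Nrg1 (853). It is the library whose counts were lowered from chromosome 15 on, and Hbegf lies in that region. For Tgfa, DMSO replicate 4 at 48 hours was high (21.6), and so was sorafenib replicate 2 at 7 days (123).

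For 5 genes the log2 response to sorafenib at 7 days differed from that at 48 hours by edgeR's interaction test. The difference was -0.63 for Egfr, 0.19 for Erbb2, 1.98 for Btc, -2.47 for Nrg1 and -1.18 for Met. Each was called in every alternative setting in which the gene was tested at an FDR of 0.05 alone. With a log2 difference of at least 1 asked for as well, Egfr and Erbb2 do not pass. From 48 hours to 7 days Nrg1, Btc and Met moved by 2.37, -1.57 and 0.99 with DMSO and by -0.10, 0.42 and -0.19 with sorafenib, and the time in culture cannot be told apart from the time of treatment.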

How the results depend on the processing

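Over the alternatives called at an FDR of 0.05 alone, 1190 of 1225 values of single genes kept their direction and call, and 42 of 50 results did so in all of them. Many of these settings could hardly move a value. Leaving out a library outside a comparison changes mainly the shared spread, and the offset acts only on genes in the lowered region. This tally therefore overstates how far the results were put to the test. The counts of changed genes among the 10 moved when a log2 fold change of at least 1 was also asked for: 4 at 48 hours, 5 at 7 days, 3 for the interaction, 4 for time with DMSO and 3 for time with sorafenib. Of all tested genes 18%, 20.6%, 9.61%, 11% and 8.45% passed that rule. With at least 10 counts in every sample, which leaves Areg, Btc and Ereg untested, 5 were called at 7 days, where 75.2% of the 12158 genes left were. The replicate block gave 7, 8, 7, 8 and 7 called members, against 52.1%, 53.9%, 34.2%, 47.3% and 37% of all genes, and ended no call; it added Ereg (0.94, FDR 0.0442) and Hbegf (-0.35, FDR 0.027) to the interaction, as Ereg did in 9 other settings. The values that changed sign were not called in either form. Without 1 library in turn, Btc at 48 hours ran from -0.07 to 0.47, Nrg1 at 7 days from -0.02 to 0.07, and the interaction from -0.07 to 0.24 for Erbb3 and from -0.34 to 0.11 for Tgfa, which was also 0.07 with total counts only and 0.04 with at least 10 counts in every sample. Areg fell short without sorafenib replicate 2 at 7 days, both against DMSO (1.27, FDR 0.0683) and over time (1.63, FDR 0.053); the cause was not tested. Without replicate 2 of sorafenib at 48 hours, a choice made for the gene lists, the ligand sum and the receptor ratios after seeing the data, the lists changed by at most 1 gene in either direction, with Spint1 added as higher and Lrig2 lost among them. Not divided by length, the ratio of Met to Egfr was 0.995, 1.79, 1.67 and 2.05. Depth limits Areg, Btc and Ereg with DMSO, where single reads move the value.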
